A study of Mus musculus with 6 samples.

Results

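Heat shock and DnaJ chaperone genes were followed in the cortex of mice 14 days after stroke, in animals given short-chain fatty acids (SCFA) and in salt-matched controls. The genes are the protein-coding members of the HSP70, HSP110, HSP90, HSP60, HSP10 and small heat shock families and of the DnaJ (J protein) classes A, B and C, chosen by gene symbol. They number 72 of 24480 genes and unmatched rows in the table, and 57 of them had enough counts to be tested. None of the 57 passed the test between SCFA and control libraries, which the labels do not tie to separate animals.

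Male C57BL/6J mice (strain label C57BL/6), 15 weeks old by the design text, contributed 3 SCFA libraries and 3 control libraries, made from snap-frozen cortex with a kit sold for human formalin-fixed RNA. SCFA or salt-matched water was the drinking water for 4 weeks, begun between 6 and 8 weeks of age, and whether it went on until sampling is not stated. All animals, controls too, had also received metronidazole, neomycin, ampicillin and vancomycin with 5% sucrose, so no group had untreated gut bacteria. No animal without stroke is among the libraries, and neither the sampled hemisphere nor its distance to the lesion is stated.

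Chaperones bind unfolded or partly folded proteins and help them fold, move between compartments or reach degradation. HSP70 proteins do so in cycles of ATP binding and hydrolysis, J proteins deliver clients and trigger the hydrolysis through their J domain, and HSP110 proteins exchange the nucleotide. HSP90 proteins act later on signalling proteins, and HSP60 with its lid HSP10 encloses clients in mitochondria. Cell stress, ischaemia included, induces some of these genes through the transcription factor HSF1, while others are made constantly at high levels in neurons. The endoplasmic reticulum (ER) holds its own set, which the unfolded protein response controls.

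Promoters carried the known control elements in a few members. They are shown because heat shock and ER stress are known to act through these elements. RefSeq promoter sequences (build GRCm38.p6) were matched by symbol for 58 of the 72 genes, and the 250 bases before each start site were searched on both strands. Hsp90aa1, Hsp90ab1, Hspa8 and Hspa9 are among the genes without such a sequence and were not searched. The pattern of 3 alternating heat shock units (GAA and TTC in turn, beginning with either, and 2 bases of any kind between units) was present in 3 of 58 chaperone genes (5.17%) and in 139 of 27025 genes with a promoter (0.514%). Dnajb6, Hspd1 and Hspe1 held it. Hspd1 and Hspe1, which encode the mitochondrial HSP60 and HSP10, lie head to head on chromosome 1, and both windows cover the same bases read on opposite strands. In these the 3-unit pattern matched in 2 overlapping places. Capitals mark every base within a match.
Hspe1, plus strand, chr1:55088044-55088091: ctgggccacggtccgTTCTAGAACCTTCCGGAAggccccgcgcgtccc
Hspd1, minus strand, chr1:55088044-55088091: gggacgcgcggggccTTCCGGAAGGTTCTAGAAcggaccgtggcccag
Dnajb6, plus strand, chr5:29735837-29735879: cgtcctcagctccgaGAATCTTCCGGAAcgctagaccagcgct

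The ER stress element (CCAAT, then 9 bases of any kind, then CCACG, on either strand) was found in 3 of the 58 (5.17%) and in 35 of 27025 genes (0.130%). The 3 were Hspa5, Hsp90b1 and Dnajc3, whose products (BiP, GRP94 and the co-chaperone P58IPK) all work inside the ER. Hsp90b1 carried 1 match in each orientation, and capitals again mark the matches.
Hspa5, plus strand, chr2:34772010-34772058: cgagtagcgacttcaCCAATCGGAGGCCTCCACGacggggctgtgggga
Dnajc3, plus strand, chr14:118937812-118937860: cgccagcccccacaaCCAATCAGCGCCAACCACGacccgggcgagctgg
Hsp90b1, minus strand, chr10:86705518-86705671: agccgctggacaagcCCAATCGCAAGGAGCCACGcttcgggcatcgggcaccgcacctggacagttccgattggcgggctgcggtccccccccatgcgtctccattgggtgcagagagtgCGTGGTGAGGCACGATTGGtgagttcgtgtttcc

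The shorter pair of heat shock units, GAANNTTC or TTCNNGAA, which is part of the longer pattern, occurred in 14 of 58 chaperone promoters (24.1%) and in 14.5% of all promoters. Those 14 genes, among them Hspa1a, Hspa1b, Hsph1, Hspb1, Dnaja1 and Dnajb4, had a median log2 fold change (SCFA over control) of -0.07, with 6 above 0 and 8 below. The 33 tested genes with a promoter but without the pair had a median of 0.07, with 21 above and 12 below. A match is a description of the letters and was not read as a binding site.

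Libraries held between 9275252 and 13862756 counts, of which a single row matched to no gene took 34.98% to 55.3%. That row was treated as structural RNA in the alternative setting that leaves such RNA out. The chaperone genes together took 0.919% to 1.03% of the remaining counts. Control 2 stood apart on the first principal component (109.2, against -25.73 to -17.65 in the other 5), and SCFA 2 on the second (-51.61, against -9.43 to 30.65). Control 2 also had counts in only 13600 RefSeq rows, against 15988 to 16941 in the other 5 libraries. The part of this limit in the values of control 2 was not tested. Summed levels of 9 neuronal markers were 2100 to 2388 CPM (counts scaled to the library size) with SCFA and 1959 to 2157 in controls. Summed markers of astrocytes (7 genes, 1103 to 1582 CPM with SCFA and 791 to 943 in controls) and microglia (8 genes, 488 to 790 CPM with SCFA and 289 to 417 in controls) were higher in every SCFA library. Not every marker was: the groups overlapped for S100b, Aldh1l1, Aqp4, Csf1r, Cx3cr1 and P2ry12, and S100b had a log2 fold change of -0.05. The other markers of these lists were higher with SCFA without overlap. Those of striatal neurons stood at 388 CPM in SCFA 2 and at 66.7 to 127 in the other 5 libraries. In bulk tissue fewer cells of a type and less RNA per cell cannot be told apart.

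Per transcript length, 4 genes stood above the rest of the 45 chaperone genes that could be ranked. Levels could be set side by side for the 45 tested genes with a single RefSeq row, as CPM per kilobase (kb) of the matched GENCODE transcript. Untested genes and those with several rows, Hspa5 among them, have no place in this order. Hsp90aa1, the stress-responsive cytosolic HSP90, averaged 288 ± 71.05 CPM per kb with SCFA and 367 ± 24.8 in controls (SD, n = 3 each, as for the next 3 genes). Hspa8, the constitutive cytosolic HSC70, averaged 261 ± 20.7 CPM per kb with SCFA and 278 ± 16.6 in controls. Hsp90ab1, the constitutive HSP90, reached 242 ± 34.3 CPM per kb with SCFA and 236 ± 20.04 in controls. Hsp90b1 in the ER reached 195 ± 17.5 CPM per kb with SCFA and 208 ± 17.6 in controls. Over the 6 libraries each of these 4 overlapped with its neighbour in this order, and the lowest value of Hsp90b1 (176 CPM per kb) lay above the highest of the next gene, Hspa4 (88.5). Hspa4, Hsph1, Dnajc7 and Dnaja2 followed, and Dnaja2 (lowest value 56.5) was clear of the ninth gene, Dnajc21. No other pair of neighbours among the 44 was separated. The heat-inducible Hspa1a and Hspa1b stood near the bottom, at ranks 40 and 42 with means over all libraries of 1.598 and 1.55 CPM per kb. Their sequences are nearly identical and the rule for shared reads is not stated, so reads of both may be missing and both levels are uncertain. By raw counts, the leading 4 genes took 50.8% to 55.2% of all chaperone counts in a library.

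**Figure D1:**
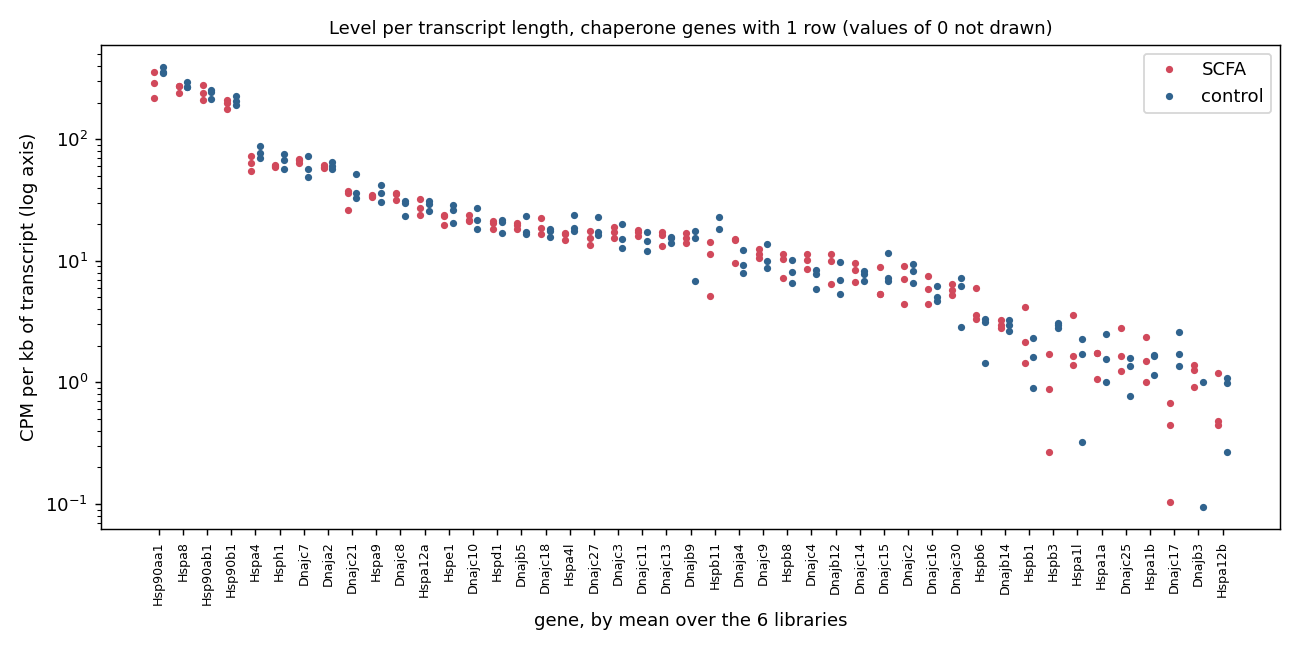
Level of each tested chaperone gene with 1 RefSeq row, in CPM per kb of transcript on a log axis, with 1 point per library and SCFA left of control. Hsp90aa1, Hspa8, Hsp90ab1 and Hsp90b1 form the top group, and Hspa1a and Hspa1b lie near the bottom in both groups.

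SCFA libraries were compared with control libraries for each of these transcripts. Of the 57 genes tested, 0 passed an adjusted p of 0.05 in either direction with edgeR (quasi-likelihood test, Benjamini-Hochberg adjustment over all genes), where 0.0836% of all 11960 genes did (0.00836% higher and 0.0753% lower). Of the 9 lower genes, 8 were among the 20 listed markers of the exocrine pancreas. DESeq2 and limma-voom also called 0. At an unadjusted p under 0.05 edgeR gave 0 of 57, where 5.76% of all genes lay (2.98% higher and 2.78% lower). DESeq2 gave 3 and limma-voom 2, all of them lower with SCFA. No share of all genes under those tools was set beside these, so they were not read as a result about the members. With edgeR and SCFA 1 left out, 1 member was higher and 3 were lower, and of all genes 367 and 381. Without control 1 it was 2 and 2 (440 and 328 of all genes), and without control 2, 1 and 1 (431 and 320). Dropping SCFA 2 (164 and 219 of all genes), SCFA 3 (270 and 242) or control 3 (477 and 349) gave 0 members each way. The main fit had 356 and 333 of 11960 genes. The number of genes tested in the other fits is not given. With edgeR, no filter gave 2 lower members (577 of all genes), leaving out structural RNA 2 (338), and the replicate block 2. Rows not summed gave 1 higher member. Without control 2 and SCFA 2, 1 member was higher and 2 were lower (371 and 330 of all genes). In the main edgeR fit the smallest unadjusted p among the members was 0.0536, close to the limit, and the smallest adjusted p was 0.869. The libraries of the groups did not overlap for 4 genes higher with SCFA (7.02% of 57, and 6.42% of all genes) and for 3 lower (5.26%, and 5.75% of all genes), shares near the background. The median log2 fold change was 0.04 over the members and 0.01 over all genes, and 48 of 57 (84.2%) lay within 0.5 of 0, as did 75.6% of all genes. For 13 genes the 95% interval of the log2 fold change stayed within 0.5 of 0, a change of 1.41-fold either way. For 36 it stayed within a 2-fold change. The other 21 had intervals that allow a larger difference, so a p that missed the threshold does not show equality there.

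**Figure D2:**
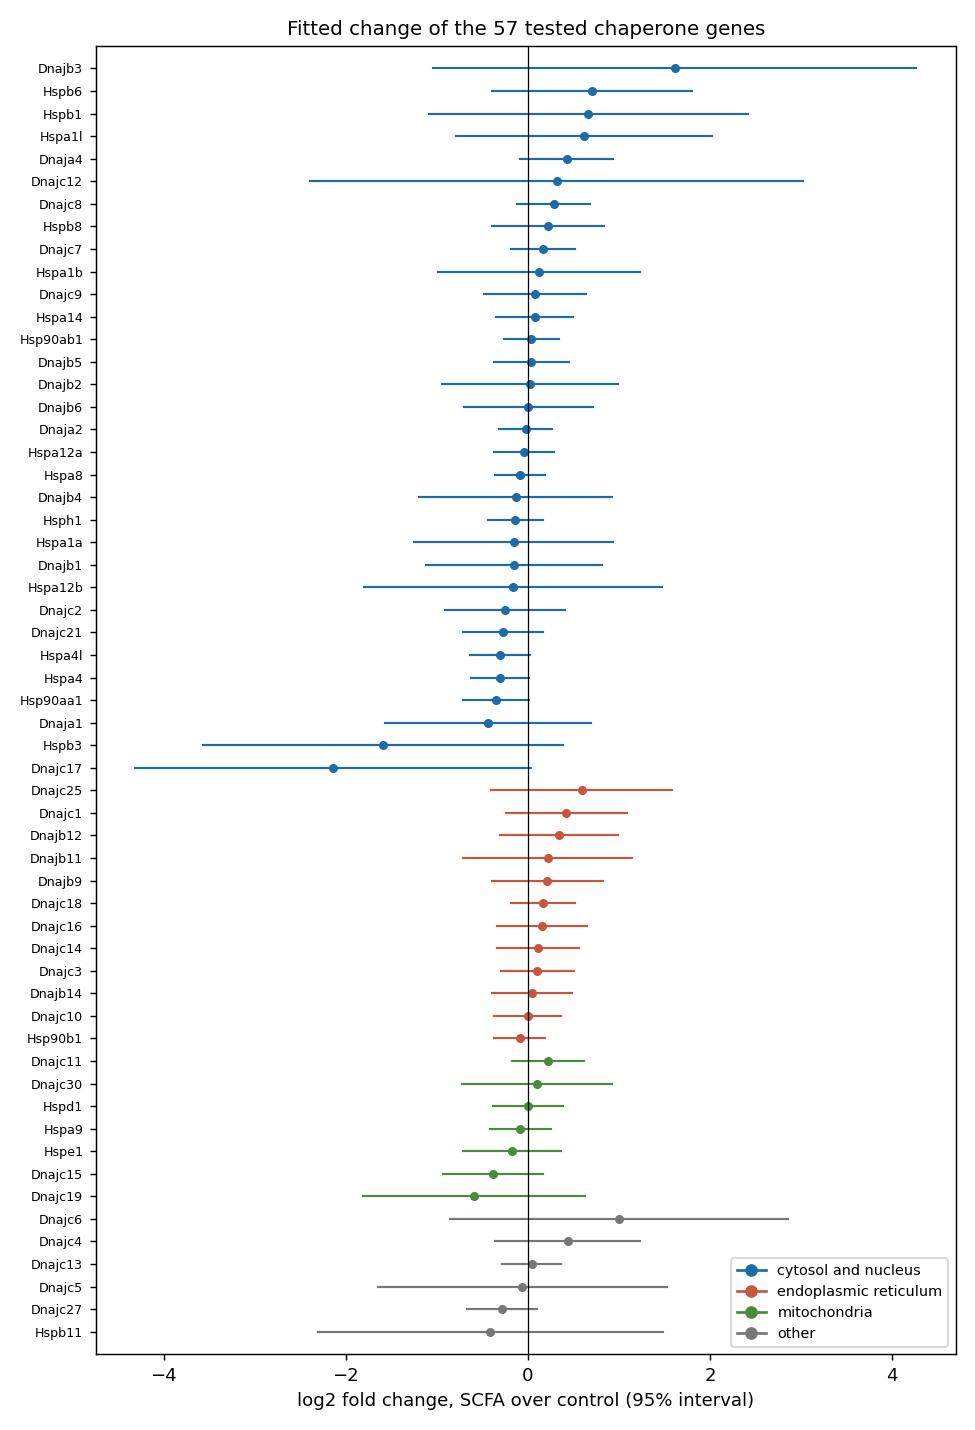
Fitted log2 fold change of the 57 tested genes, SCFA over control, as points with 95% intervals from edgeR, coloured and grouped by compartment. Every interval includes 0, and the widest belong to genes with few counts such as Dnajb3, Dnajc12 and Dnajc17.

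The cytosolic HSP70 and HSP110 genes are the core of the folding system. Hspa8 (chromosome 9, 40801276 to 40805202, GRCm38.p6 as for all positions) measured 569, 654 and 656 CPM with SCFA and 648, 711 and 638 CPM in controls, libraries 1 to 3 of each group in order, and the groups overlapped. Its 95% fold interval was 0.778 to 1.14. Hspa4, an HSP110-type exchange factor, had 333, 292 and 252 CPM with SCFA and 325, 409 and 354 CPM in controls. Only SCFA 1 reached the range of the controls. The log2 fold change was -0.31 (SE 0.148, unadjusted p = 0.0554, adjusted p = 0.871). Its relative Hspa4l had 159, 141 and 159 CPM with SCFA and 166, 226 and 176 CPM in controls, and here the groups did not overlap. That log2 fold change was -0.31 (SE 0.154, adjusted p = 0.881), and it was -0.16 without control 2 and -0.11 without control 2 and SCFA 2. Hsph1, the heat-inducible HSP110, had 232, 227 and 224 CPM with SCFA and 214, 285 and 254 CPM in controls. In Hspa4, Hspa4l and Hsph1 the highest of the 6 values belonged to control 2.

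Hspa1a and Hspa1b encode the classic HSP70 that heat shock and ischaemia induce. Hspa1a had 3.13, 5.16 and 5.14 CPM with SCFA and 3.0, 4.61 and 7.41 CPM in controls, from counts of 30, 75 and 69 with SCFA and 37, 40 and 74 in controls. Hspa1b had 4.18, 6.6 and 2.83 CPM with SCFA and 4.62, 4.72 and 3.2 CPM in controls. For both genes the groups overlapped. The fold interval was 0.422 to 1.92 for Hspa1a and 0.503 to 2.34 for Hspa1b. These are near-identical copies side by side on chromosome 17, so the split of reads between them is uncertain. Hspa1l, in the same cluster and known mainly from testis, had 4.07, 8.87 and 3.42 CPM with SCFA and 4.21, 0.807 and 5.61 CPM in controls, with the low value in control 2. Of the atypical HSP70 genes, Hspa12a averaged 159 ± 24.5 CPM with SCFA and 164 ± 15.8 CPM in controls (SD, n = 3 each, as for all such values). The endothelial Hspa12b averaged 2.41 ± 1.44 CPM with SCFA and 2.68 ± 1.53 CPM in controls. Summed markers of endothelium (4 of 5 with counts, Pecam1 at 0) were 63.0 to 87.1 CPM with SCFA and 46.9 to 57.6 in controls, and their part in the value of Hspa12b was not tested. Hspa14, which acts at the ribosome, averaged 33.1 ± 1.12 CPM with SCFA and 31.5 ± 4.27 CPM in controls.

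Among HSP90 genes the value farthest from 0 was that of Hsp90aa1 (chromosome 12, 110691036 to 110696395). It had 1179, 712 and 946 CPM with SCFA and 1139, 1295 and 1175 CPM in controls. SCFA 1 lay within the controls and the other SCFA libraries below them. The log2 fold change was -0.35 (SE 0.168, unadjusted p = 0.0584, adjusted p = 0.876). Without SCFA 2 it was -0.17, without both SCFA 2 and control 2 -0.12, and without SCFA 1 -0.53. Hsp90ab1 showed 600.5, 701 and 529 CPM with SCFA and 538, 610.0 and 636 CPM in controls, with a fold interval of 0.831 to 1.27. Here the highest value was in SCFA 2, the library with the lowest Hsp90aa1.

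**Figure D3:**
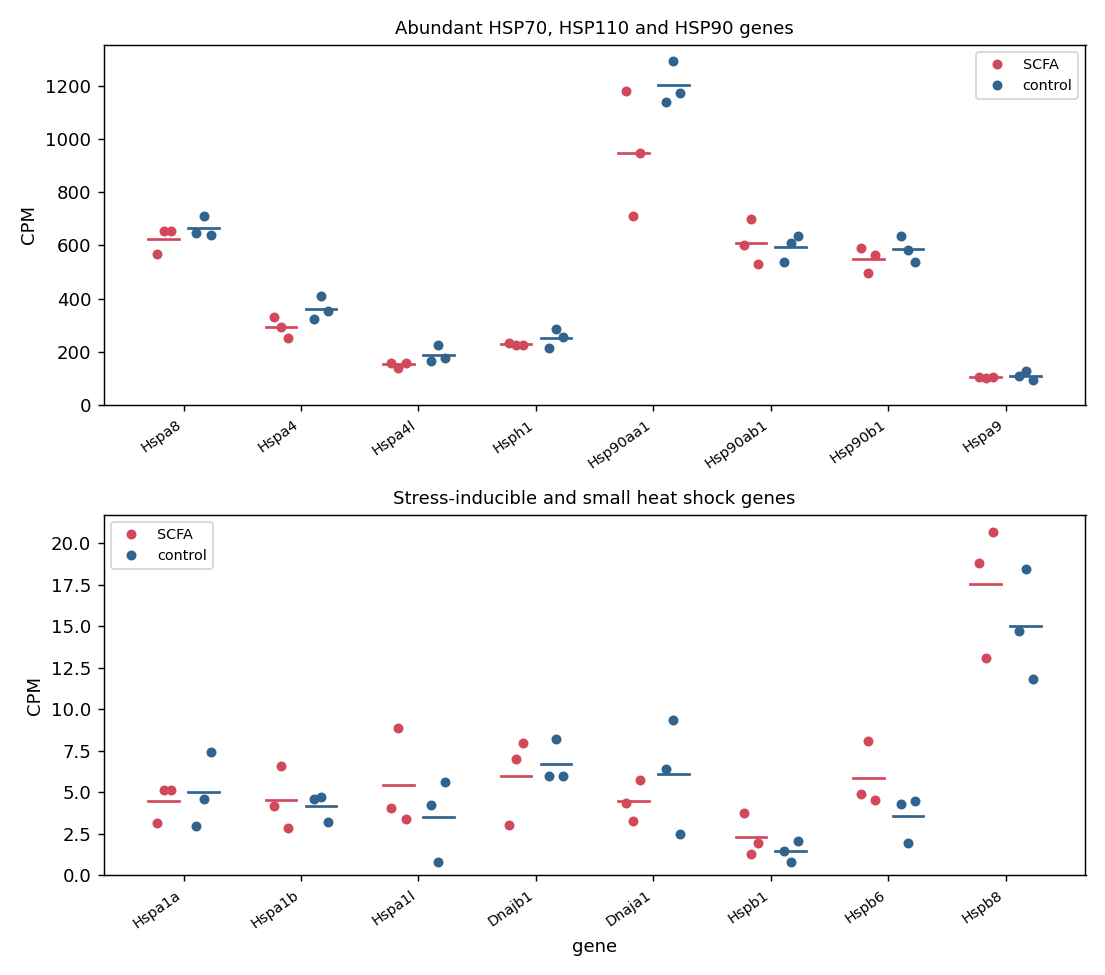
CPM of abundant HSP70, HSP110 and HSP90 genes (upper panel) and of stress-inducible and small heat shock genes (lower panel), with 1 point per library, a bar at the group mean, SCFA left and control right. The groups overlap for every gene drawn except Hspa4l, lower with SCFA, and Hspb6, higher with SCFA, neither past the threshold.

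Small heat shock proteins hold unfolded proteins until the ATP-driven machines take over. Hspb8, a partner of BAG3 in selective autophagy, was the one with the most counts of the family (18.8, 13.1 and 20.7 CPM with SCFA and 14.7, 18.4 and 11.8 CPM in controls), and its groups overlapped. Hspb6 had 4.91, 8.11 and 4.54 CPM with SCFA and 4.29, 1.96 and 4.51 CPM in controls. Its groups did not overlap, by the narrow margin between SCFA 3 and control 3. The log2 fold change was 0.70 (SE 0.511, adjusted p = 0.902), and 0.10 without control 2 and SCFA 2. Hspb1, the HSP27 that reactive astrocytes are known to make, had 3.76, 1.31 and 1.94 CPM with SCFA and 1.46, 0.807 and 2.1 CPM in controls. Summed astrocyte markers, though not each marker, were higher in each SCFA library, as given above. Their part in the values of these genes was not tested. Markers of mural and smooth muscle cells, which also make Hspb1 and Hspb6, summed to 99.1 to 124 CPM with SCFA and 113 to 127 in controls (4 of 6 with counts, Myh11 and Pdgfrb at 0). Hspb3, a muscle gene, had counts of 2, 10 and 18 with SCFA and 27, 21 and 23 in controls, with a fitted log2 change of -1.59 (SE 0.917, adjusted p = 0.889). Hspb11 carries the symbol of the family but encodes a protein of intraflagellar transport. It had counts of 30, 101 and 117 with SCFA and 138, 0 and 138 in controls, so control 2 alone held none.

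Cytosolic J proteins of classes A and B are the main partners of HSP70. Dnaja2 had 180.2, 170.1 and 173 CPM with SCFA and 191, 177 and 165 CPM in controls, and a fold interval of 0.805 to 1.2. Dnaja4, a class A gene that sterols are known to regulate, had 28.9, 45.3 and 44.1 CPM with SCFA and 36.6, 23.97 and 27.5 CPM in controls (log2 fold change 0.43, SE 0.237, adjusted p = 0.889). SCFA 2 and SCFA 3 lay above every control, and SCFA 1 among the controls. Dnajb1, the heat-inducible HSP40, had 3.03, 7.01 and 7.96 CPM with SCFA and 5.99, 8.18 and 6.01 CPM in controls. Dnaja1 had 4.39, 3.3 and 5.73 CPM with SCFA and 6.4, 9.33 and 2.5 CPM in controls. Both overlapped between groups and both have several RefSeq rows. Dnajb6, which restrains the aggregation of polyglutamine proteins, averaged 10.8 ± 3.24 CPM with SCFA and 10.8 ± 1.93 CPM in controls. The neuronal Dnajb2 averaged 4.92 ± 0.512 CPM with SCFA and 4.83 ± 0.946 CPM in controls and Dnajb5 44.8 ± 2.69 CPM with SCFA and 43.7 ± 8.28 CPM in controls. Dnajb3 had counts of 14, 14 and 18 with SCFA and 13, 0 and 1 in controls, with a log2 fold change of 1.61 (SE 1.23). Without control 1 it was 4.32 and without control 2 1.08. It lies within the Ugt1a gene cluster, and with the strand setting of the counting unknown, reads of overlapping genes cannot be told apart.

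Class C J proteins share little beyond the J domain and serve single tasks. Dnajc7, a partner of HSP70 and HSP90, had 158, 149 and 159 CPM with SCFA and 132, 169 and 113 CPM in controls. It overlaps the myelin gene Cnp, and the markers of oligodendrocytes summed to 86.6 to 129 CPM with SCFA and 83.1 to 120.3 in controls (5 of 6 with counts). Their part in its value was not tested. Dnajc8, a splicing protein, had 49.4, 44.1 and 50.9 CPM with SCFA and 43.5, 32.7 and 42.2 CPM in controls. Its groups did not overlap (log2 fold change 0.29, SE 0.186, adjusted p = 0.896). Dnajc4 also did not overlap, with 8.46, 9.49 and 7.14 CPM with SCFA and 6.56, 4.95 and 7.01 CPM in controls (log2 fold change 0.44, SE 0.37). Dnajc17, another nuclear J protein, had counts of 1, 10 and 6 with SCFA and 17, 15 and 26 in controls. It had the smallest unadjusted p of the 57 (0.0536, adjusted p = 0.869) and a log2 fold change of -2.14 (SE 1.01). It overlaps Zfyve19, so its reads are uncertain. At the synapse, the auxilin gene Dnajc6, which strips clathrin from vesicles, had counts of 18, 32 and 27 with SCFA and 19, 4 and 10 in controls (log2 fold change 1.001, SE 0.859). In CPM its groups did not overlap. Dnajc5, which encodes the synaptic vesicle chaperone CSP alpha, had counts of 14, 28 and 36 with SCFA and 35, 12 and 21 in controls. Both have 4 RefSeq rows, and their low counts were not read as low expression. Dnajc13, an endosomal protein, had 138, 129 and 107 CPM with SCFA and 125, 113 and 124 CPM in controls, and Dnajc27 had 71.8, 63.8 and 82.8 CPM with SCFA and 76.7, 109 and 80.7 CPM in controls (log2 fold change -0.28, SE 0.179). In both the groups overlapped. The other 10 tested J protein genes, which also overlapped, ran from a log2 fold change of -0.27 in Dnajc21 and -0.25 in Dnajc2 to 0.17 in Dnajc18 and 0.32 in Dnajc12, with Dnajb4, Dnajb14, Dnajc9, Dnajc14, Dnajc16 and Dnajc30 between them.

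In the ER, 12 of 14 genes were tested, and 10 had a log2 fold change above 0 and 2 below. Over all 11960 genes tested, 6077 lay above 0 and 5883 below. The median of the ER genes was 0.16, against 0.01 over all genes, and 0 passed the test. For 0 of 12 were the libraries of the groups separate, where 6.42% of all genes were separate and higher and 5.75% separate and lower. Without SCFA 2 the median was 0.0729. Hsp90b1 (chromosome 10, 86690841 to 86705444), the GRP94 that folds secreted and membrane proteins, had 592, 496 and 563 CPM with SCFA and 637, 583 and 538 CPM in controls. Its fold interval was 0.771 to 1.14. Dnajc3, which protects against ER stress, averaged 88.3 ± 9.22 CPM with SCFA and 82.3 ± 19.5 CPM in controls, and the disulfide reductase gene Dnajc10 had 96.9, 87.6 and 85.2 CPM with SCFA and 86.8, 109 and 74.2 CPM in controls. Dnajb9, a BiP partner that ER stress induces, had 41.4, 34.6 and 37.7 CPM with SCFA and 42.8, 16.9 and 37.9 CPM in controls. Dnajb11, another, had 7.94, 9.0 and 6.85 CPM with SCFA and 10.04, 3.34 and 7.01 CPM in controls. For both, control 2 was the one low library. Without control 2 the log2 fold change was -0.09 for Dnajb9 and -0.11 for Dnajb11. Dnajb12, anchored in the ER membrane, had 22.5, 25.6 and 14.4 CPM with SCFA and 11.8, 22.01 and 15.6 CPM in controls (log2 fold change 0.34, SE 0.302). The value farthest from 0 was that of Dnajc25 (log2 fold change 0.59, SE 0.46), followed by Dnajc1 (log2 fold change 0.42, SE 0.306). Markers of the exocrine pancreas, a tissue rich in ER chaperones, summed to 2.61 to 4.91 CPM with SCFA and 42.6 to 429 CPM in controls (20 of 20 with counts), and their part in these values was not tested. Hspa5, the gene of BiP, stood at 0 counts in all 6 libraries. It has 2 RefSeq rows and overlaps Rabepk, and the 0 was not read as absence.

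Mitochondrial members gave a median log2 fold change of -0.08 over 7 tested genes of 9, with 3 above 0 and 4 below. Hspa9, the mitochondrial HSP70 mortalin that pulls proteins through the inner membrane, had 105, 102 and 104 CPM with SCFA and 109, 128 and 92.7 CPM in controls. The SCFA values lay inside the range of the controls. Hspd1 had 50.99, 49.2 and 44.5 CPM with SCFA and 41.2, 52.8 and 50.7 CPM in controls (log2 fold change 0.00129, SE 0.178). Its lid gene Hspe1, which shares the promoter stretch printed above, had 18.4, 15.3 and 18.01 CPM with SCFA and 20.1, 15.9 and 22.3 CPM in controls (log2 fold change -0.17, SE 0.248). Dnajc11, of the complex that joins the mitochondrial membranes, averaged 53.5 ± 3.03 CPM with SCFA and 45.9 ± 7.88 CPM in controls. Dnajc19 and Dnajc15 are related J proteins of the import motor. Dnajc19 had counts of 69, 45 and 24 with SCFA and 92, 32 and 69 in controls (log2 fold change -0.59, SE 0.565). Without SCFA 1 this was -1.29 and without SCFA 3 -0.23. Dnajc15 measured 55.3, 33.3 and 32.9 CPM with SCFA and 44.5, 71.8 and 42.2 CPM in controls (log2 fold change -0.38, SE 0.257), and SCFA 1 and control 2 were the high libraries of their groups. Over the 32 cytosolic and nuclear genes the median was -0.01, with 16 above 0 and 16 below. Scaling by total counts moved the median of all genes to 0.18, and with it the mitochondrial median was 0.11 and the cytosolic 0.17, both then above 0 and below that of all genes. Without control 2 and SCFA 2 the mitochondrial median was 0.0348. No test compared the compartments.

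**Figure D4:**
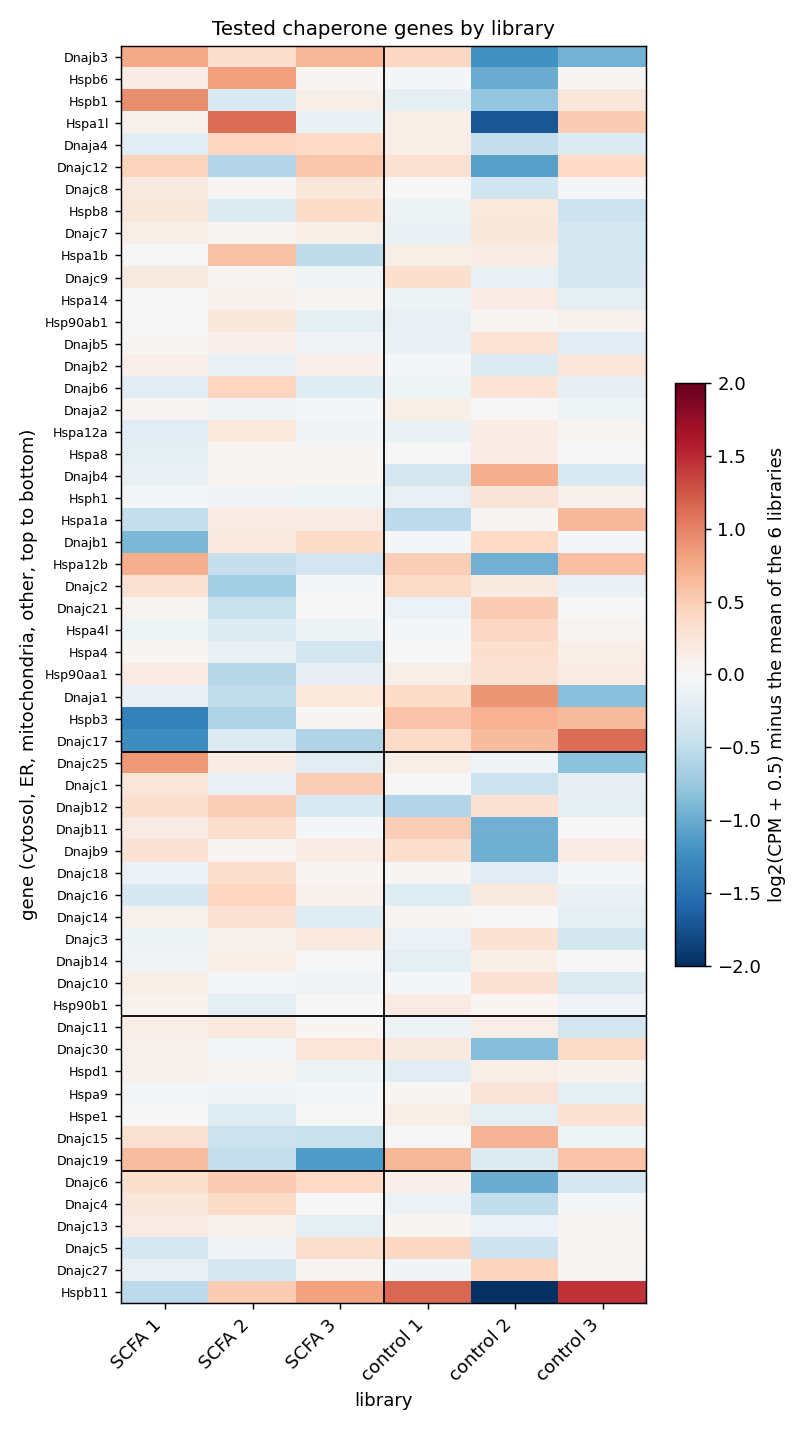
Level of each tested chaperone gene in each library as log2(CPM + 0.5) minus its mean over the 6 libraries, in rows grouped by compartment, with SCFA left and control right of the line. Control 2 holds many of the strongest colours of both signs, and no block of genes separates the groups.

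Single libraries set much of the spread among the members. Control 2 was the highest of the 6 libraries for 19 of 57 genes and the lowest for 18, and SCFA 2 was the highest for 15 and the lowest for 7. SCFA 1 was the highest for 5 and the lowest for 6, and SCFA 3 the highest for 4 and the lowest for 8. Control 1 was the highest for 8 and the lowest for 6, and control 3 the highest for 6 and the lowest for 12. Such counts were not made over all genes, where control 2 and SCFA 2 also stood apart on the principal components. They were therefore not read as particular to the chaperones. Genes highest in control 2 included the abundant Hsp90aa1, Hspa8 and Hspa4, and those lowest there included Hspa1l, Hspb1, Hspb6, Dnajb9 and Dnajb11. Without control 2 the median over the members was 0.02, and without control 2 and SCFA 2 it was -0.00767. Under each of these settings edgeR called 0 members. Fold changes of several genes described above also moved by over 1.5 times with 1 library. Without control 2 the log2 fold change was -0.10 for Dnajc15, -0.11 for Dnajc27, 0.17 for Dnajc8 and 0.60 for Dnajb12. Without SCFA 2 it was 0.17 for Dnajb12, and without control 1 0.15. Without SCFA 1 it was -0.66 for Dnajc15 and without SCFA 2 or SCFA 3 -0.25.

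The remaining 15 members had too few counts to be tested. Of the 20 members with several RefSeq rows, 8 were untested, and of the 52 with 1 row, 7 were. Over all protein-coding genes, 34.3% of those with several rows and 61.4% of those with 1 row were tested, so low counts of genes with several rows were not read as low expression. Besides Hspa5, the genes Dnajb8, Dnajc5b, Dnajc5g, Dnajc22 and Hspb9, several of them known mainly from testis, stood at 0 counts in every library. Dnaja3 (the mitochondrial J protein TID1) had 54 counts in all, Dnajc24 62, Dnajb7 37, Dnajb13 23, Hspb7 18, Hspa2 9, Hspa13 9, Hspb2 6 and Dnajc28 4. Those of Hspa2 were 3, 4 and 2 in SCFA 1 to 3 and 0 in each control, so no fold change is given at a floor of 3 counts per library.

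Partners and regulators of the chaperones included no gene past the threshold. For the counts above and below 0 given here, the background is 6077 above and 5883 below over all 11960 genes tested. Of the stress regulators, 5 of 6 were tested and 0 passed, and the master regulator Hsf1 had a log2 fold change of 0.09 (SE 0.258). Hsf2 (log2 fold change -0.12, SE 0.211) and Hsbp1, which binds HSF1 (log2 fold change 0.07, SE 0.141), also missed the threshold. Among co-chaperones 21 of 26 were tested, 6 lay above 0 and 15 below, and 0 passed (median -0.10). Bag5, which releases nucleotide from HSP70, had 32.2, 42.1 and 28.5 CPM with SCFA and 20.3, 29.2 and 24.8 CPM in controls (log2 fold change 0.47, SE 0.229), and the value was 0.30 without SCFA 2. Fkbp5, an HSP90 partner and glucocorticoid target, had 34.6, 40.97 and 37.3 CPM with SCFA and 44.2, 50.5 and 45.9 CPM in controls (log2 fold change -0.32, SE 0.178, adjusted p = 0.889). The groups did not overlap for Fkbp5. Of the cytosolic chaperonin and prefoldin genes, which fold actin and tubulin, 13 of 14 were tested, 3 lay above 0 and 10 below, and 0 passed (median -0.20). Pfdn5 had 20.7, 9.28 and 22.2 CPM with SCFA and 25.1, 30.6 and 28.5 CPM in controls, without overlap (log2 fold change -0.70, SE 0.303, unadjusted p = 0.0388, adjusted p = 0.862). Without SCFA 2 that value was -0.38, and without control 2 and SCFA 2 -0.32. Vbp1 had a log2 fold change of -0.36 (SE 0.20).

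Of the ER folding and unfolded protein response genes, 20 of 24 were tested, 13 lay above 0 and 7 below, and 0 passed (median 0.23). Calr, the calcium-binding lectin chaperone calreticulin, had 153, 257 and 177 CPM with SCFA and 131, 149 and 162 CPM in controls (log2 fold change 0.41, SE 0.186, unadjusted p = 0.0448, adjusted p = 0.862). SCFA 1 lay below control 3 and the other SCFA libraries above every control. Without SCFA 2 the log2 fold change of Calr was 0.17. The translocon J protein gene Sec63 had 153, 145 and 141 CPM with SCFA and 178, 164 and 201 CPM in controls, without overlap (log2 fold change -0.31, SE 0.14, adjusted p = 0.862). Among mitochondrial chaperones, importers and proteases 11 of 12 were tested, 6 lay above 0 and 5 below, and 0 passed (median 0.04). Lonp1, a matrix protease, had a log2 fold change of 0.46 (SE 0.244) and the import receptor gene Tomm70a of -0.24 (SE 0.132). Without SCFA 1 the value of Lonp1 was 0.25 and without control 2 0.26. The partner genes at 0 counts in all libraries, among them Xbp1, Canx, Cryab and Bag1, each have 2 to 4 RefSeq rows.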

How the data were processed

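RNA of the cortex was sequenced in 3 SCFA and 3 control libraries. The authors deposited unnormalized counts for 34755 RefSeq transcripts. The submitters' processing notes name the build mm10 and, as tools, featureCounts and CASAVA 1.8.2. No aligner, strand setting or rule for shared reads is named there. A symbol was found for 34424 rows in a RefSeq table of GRCm38.p6 and for 192 more in the GENCODE M21 table, and rows were summed per symbol. The unmatched row with the most counts stayed in the library sizes.

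Testing used edgeR 4.0.16 in R 4.3.3 with filterByExpr (minimum count 10, minimum total 15), TMM scaling, all 6 libraries, no covariate, two-sided. The standard error is the size of the log2 fold change divided by the square root of F, and the 95% intervals use the same fit. CPM uses TMM-scaled library sizes, in which 3 counts stand for 0.206 to 0.346 CPM. Alternatives used DESeq2 1.42.0 and limma 3.58.1, other scalings and filters, single libraries left out, and unsummed rows.

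The members and lists were chosen with earlier results of these data known. The members described in full are, per family, those past the threshold, the 3 with the smallest p, the 2 with the most counts and a fixed set of well-known genes. Others were added after their values were seen. Of each partner list the 2 with the smallest p are described. 1 gene that this rule names is not reported here. The labels do not tie libraries to separate animals, so p-values measure the spread between these libraries, which may be technical. Libraries that share a number were not paired: their deviations correlated at -0.00186, 0.0113 and -0.00414.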

Additional observations from a re-analysis of the deposited data

How the results depend on the processing

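Under the 17 alternative settings, and at an adjusted p of 0.1, the count of chaperone genes past the threshold stayed at 0 in each direction. Over all genes, 1 was higher and 9 were lower. No filter on low counts changed these to 30 and 25, the DESeq2 test to 14 and 17, and limma-voom to 0 and 0. The replicate block called 10 higher, and dropping both control 2 and SCFA 2 called 14. With single libraries dropped, 0 to 8 genes were called higher and 0 to 13 lower. Total-count scaling moved the median log2 fold change of all genes to 0.18. It put the cytosolic median at 0.17, the ER median at 0.32, the mitochondrial at 0.11 and that of all members at 0.22. With single libraries dropped the cytosolic median ran from -0.0906 to 0.0282.

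Of 41 named members, 24 changed sign in some setting, each with a size of at most 0.44 in the main result. The regulator Hsf2, which is not a member, also changed sign and is listed beside them. Log2 fold changes of opposite sign under total counts were Dnaja2 0.15, Dnajb1 0.0532, Dnajc10 0.20, Dnajc5 0.0475, Hsf2 0.0385, Hsp90b1 0.0691, Hspa12a 0.16, Hspa1a 0.0536, Hspa8 0.10, Hspa9 0.11, Hsph1 0.0637. Without both control 2 and SCFA 2 they were Dnaja1 0.18, Dnajb11 -0.21, Dnajb2 -0.019, Dnajb6 -0.12, Dnajb9 -0.0319, Dnajc10 0.18, Dnajc13 -0.0338, Dnajc15 0.0193, Hsf2 0.00241, Hsp90ab1 -0.0564, Hspa1b -0.17, Hspa9 0.0503. With rows not summed they were Dnaja1 0.0286, Dnajb2 -0.13, Dnajb6 -0.10. DESeq2 size factors gave Dnajb6 -0.00365, Hspd1 -0.00644, and the DESeq2 test Dnajb6 -0.00307, Hspd1 -0.00618. The replicate block gave Dnajb6 -0.0228, Dnajc10 0.0138, Hspb11 0.15, and changed no call among the members. Without a filter Dnajc10 0.00251 resulted, and with limma-voom Dnajc10 0.0157, Hspb11 1.08. Dropping 1 library gave ranges across 0 for Dnaja2 (-0.0700 to 0.0374), Dnajb1 (-0.41 to 0.16), Dnajb11 (-0.11 to 0.62), Dnajb2 (-0.10 to 0.18), Dnajb5 (-0.0503 to 0.20), Dnajb6 (-0.26 to 0.16), Dnajb9 (-0.0925 to 0.47). It did so for Dnajc10 (-0.12 to 0.16), Dnajc13 (-0.0264 to 0.14), Dnajc3 (-0.0348 to 0.30), Dnajc5 (-0.31 to 0.22), Hsf2 (-0.27 to 0.0336), Hsp90ab1 (-0.0679 to 0.13), Hspa12a (-0.16 to 0.0609). It also did for Hspa12b (-0.76 to 0.14), Hspa1a (-0.42 to 0.25), Hspa1b (-0.25 to 0.37), Hspa9 (-0.19 to 0.0399), Hspb11 (-0.98 to 0.15), Hspd1 (-0.0955 to 0.0704). The cause of these changes was not tested.

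With 3 libraries a group, 21 of 57 intervals reached beyond a 2-fold change. How much of this comes from depth was not tested.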

Other observations

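The shares of the chaperone families among all chaperone counts were looked at after their values were seen. The 45 DnaJ genes took 25.7%, 27.3% and 26.7% of all chaperone counts in SCFA 1 to 3, and 24.8%, 24.2% and 22.6% in controls 1 to 3. The groups did not overlap. The 17 genes of the HSP70 and HSP90 families took 72.5%, 70.8% and 71.3% with SCFA and 73.4%, 74.3% and 75.4% in controls. The DnaJ share and this share are parts of the same total, so they are not separate results. Hsp90aa1, Hsp90ab1, Hsp90b1 and Hspa8 alone took 50.8% to 55.2%, so a change in these genes alters the DnaJ share too. These shares do not depend on the scaling between libraries. No test was made of them, and no shares of other gene groups were set beside them.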
